A study of Xenopus laevis with 5 samples.

Results

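The early mesoderm regulators described here are the genes myod1, vegt, foxf1, wnt8a, evx1, tbxt, tbx6, msgn1 and not, taken by gene symbol in explants of Xenopus laevis ectoderm that had been made neural. All probe sets with a single platform symbol of these 9 genes were taken, which gave 12 of the 15490 probe sets tested, 1 for each of 12 gene copies. Both copies were measured for myod1, vegt and not, and 1 copy for each of the others. This frog is allotetraploid, and the suffixes .L and .S mark its paired gene copies, which are close enough in sequence to share signal on short probes. The genes were chosen by their log2 differences between zic1 and control explants, as known from earlier work on the same arrays. Their values are therefore a description, with no test of the genes as a group.

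RNA was measured on 5 Affymetrix arrays. The 2 zic1 arrays came from embryos that had received, when they had 2 cells, a hormone-inducible form of zic1 together with noggin. The 3 control arrays came from explants injected with beta globin together with noggin, so that no group was without noggin, a secreted BMP antagonist under which ectoderm becomes neural tissue. The explants, taken at stage 9, were kept to the equivalent of stage 12 and given cycloheximide for 30 min to stop protein synthesis. Dexamethasone, which releases the injected zic1 protein, was then added, and explants were taken 3 h later. The comparison asks which transcripts zic1 changes without new protein. The injected constructs are present from early cleavage on and every sample received both drugs, so an action of zic1 before the block cannot be told apart from one after it. The labels call the arrays biological replicates without naming embryos, clutches or days, so the measured spread is that between these arrays.

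Mesoderm is the middle germ layer, which forms muscle, notochord, blood and connective tissue. In the frog embryo it arises around the equator, where T-box factors and Nodal, FGF and Wnt signals act together and hold one another's expression in place. The animal ectoderm above it gives epidermis or, when BMP signals are blocked, neural tissue, and does not normally form mesoderm by itself. Zic1, a DNA-binding zinc-finger protein, acts in the neural plate and along its border.

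Each value is the ratio of a probe set to its own median over the 5 arrays, so 1 is that median and the absolute signal is not kept. No level can therefore be set against another gene or against background, and a ratio near 1 in every array may belong to a transcript that is steady or to one too weak to read. Where both zic1 arrays lie above all controls, the highest control is the median and reads exactly 1. The labelled tissue can be checked only for differences between arrays, because marker levels were not kept. In 1 probe set zic1.S read 5.281 and 5.068 in the zic1 arrays, against 1.000, 0.965 and 0.699 in the control arrays. A second probe set read 1.684 and 1.759 in the zic1 arrays, against 1.000, 0.907 and 0.815 in the control arrays. Both were higher in the zic1 arrays, which accords with the labels. The number of arrays limits the precision.

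Of the regulators, myod1, vegt, foxf1, wnt8a and evx1 were higher in the zic1 explants, while tbxt, tbx6, msgn1 and both copies of not lay close to the controls. In the limma fit over all probe sets, 6 of the 12 probe sets lay past an adjusted p of 0.05 and all 6 were higher, against 1.1% of all probe sets called higher and 0.316% called lower. These were myod1.S, myod1.L, vegt.L, foxf1.L, wnt8a.L and evx1.L. Both zic1 arrays lay above all 3 controls in 9 of the 12 probe sets, against 19.9% of all probe sets. Since the genes were chosen with these values known, the counts are given without a reading. The calls changed when single arrays were left out, as did those over all 15490 probe sets. Fewer arrays also leave fewer residual degrees of freedom, so a lost call does not by itself show dependence on the array left out. Of the 12, 1 passed without control replicate 1, 0 without control replicate 2 and 4 without control replicate 3. Over all probe sets these counts were 21, 5 and 207. With zic1 replicate 1 or 2 left out, the spread of the zic1 group cannot be measured. The log2 difference was then 2.98 or 2.74 for myod1.S and 1.96 or 1.38 for myod1.L. Without variance moderation or after cyclic loess, 0 of all probe sets passed, the 12 included. After cyclic loess myod1.S lay at -0.0058, foxf1.L at -0.51 and wnt8a.L at -0.015. That curve, however, is drawn against mean log2 ratios in which the group difference is contained.

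**Figure D1:**
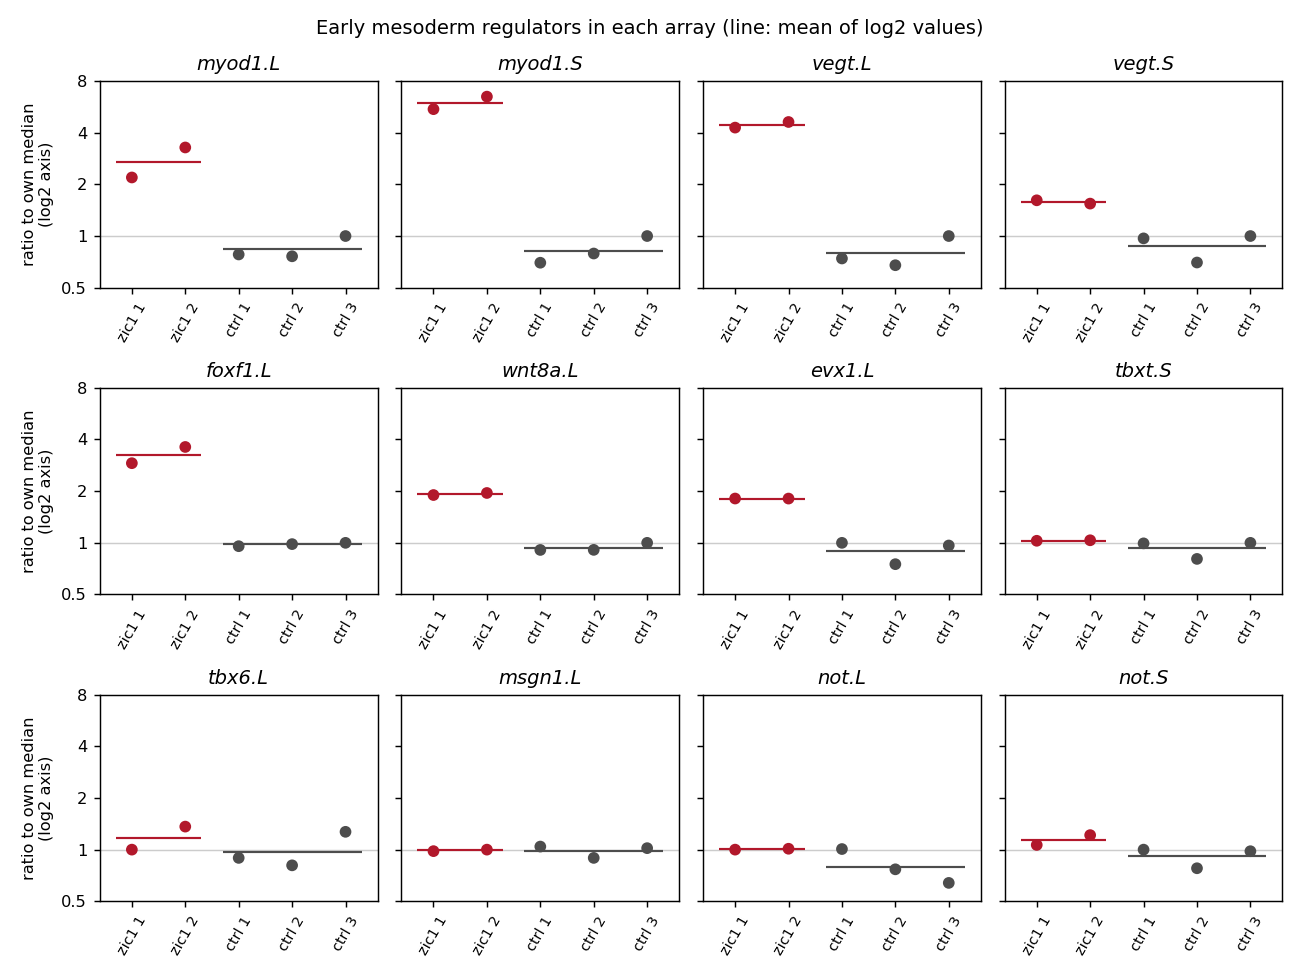
Ratio of each of the 12 probe sets to its own median over the 5 arrays, on a log2 axis, with a point for each zic1 array (red) and each control array (grey, ctrl) and a line at the mean of the log2 values of each group. In myod1.S the zic1 arrays read 5.485 and 6.489 and the controls 0.699 to 1.000, whereas in msgn1.L all 5 arrays lie between 0.895 and 1.042.

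Myod1 encodes the basic helix-loop-helix factor that commits cells to skeletal muscle. Myod1.S read 5.485 and 6.489 in the zic1 arrays, against 0.699, 0.791 and 1.000 in the control arrays. That is a log2 difference of 2.86 ± 0.18 (SE, n = 2 and 3), or 7.27-fold (95% interval 5.34 to 9.89). The lowest zic1 array was far above the highest control. Myod1.L read 2.194 and 3.281 in the zic1 arrays, against 0.781, 0.762 and 1.000 in the control arrays. Its log2 difference of 1.67 ± 0.21 was 1.19 below that of the .S copy. The groups of this copy were also apart, but its 2 zic1 arrays differed from each other by 0.58 on the log2 scale, the widest gap between zic1 arrays among the 12 probe sets.

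Vegt, tbxt and tbx6 belong to the T-box family of transcription factors. VegT is known in Xenopus as a maternal determinant of endoderm and mesoderm that is transcribed again in the early mesoderm. Vegt.L read 4.283 and 4.618 in the zic1 arrays, against 0.740, 0.676 and 1.000 in the control arrays, a log2 difference of 2.49 ± 0.18 or 5.60-fold (95% interval 4.08 to 7.70). Vegt.S read 1.615 and 1.545 in the zic1 arrays, against 0.969, 0.701 and 1.000 in the control arrays. Both copies had zic1 arrays above every control, with a smaller difference in the .S copy (0.85 ± 0.17), which was not past the threshold (adjusted p = 0.082, limma). The copies of vegt were 1.64 apart on the log2 scale, with .L the larger, the opposite order to myod1. Because the copies can share signal, and probes differ in how they respond, the gap between copies was not tested.

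Tbxt, known as brachyury, is required for notochord and posterior mesoderm. Tbxt.S read 1.028 and 1.035 in the zic1 arrays, against 0.993, 0.806 and 1.000 in the control arrays. The zic1 arrays were just above the highest control, and the log2 difference was 0.15 ± 0.12, with a 95% interval of the fold from 0.901 to 1.37. Tbx6 acts in paraxial and ventral mesoderm. Tbx6.L read 1.000 and 1.362 in the zic1 arrays, against 0.895, 0.810 and 1.270 in the control arrays, so the groups overlapped. Its log2 difference was 0.26 ± 0.24 (95% interval of the fold 0.790 to 1.82), the largest standard error among the 12 probe sets.

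Wnt8a is the secreted Wnt ligand of the ventral and lateral mesoderm, and the only signal in the set. Wnt8a.L read 1.899 and 1.952 in the zic1 arrays, against 0.909, 0.910 and 1.000 in the control arrays. Both groups were tight, the zic1 arrays lay above the controls without overlap, and the log2 difference of 1.04 ± 0.08, or 2.05-fold (95% interval 1.78 to 2.36), had the smallest standard error of the 12.

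Foxf1 is a forkhead factor of lateral plate and visceral mesoderm. Foxf1.L read 2.911 and 3.619 in the zic1 arrays, against 0.956, 0.983 and 1.000 in the control arrays, a log2 difference of 1.73 ± 0.11 or 3.31-fold (95% interval 2.72 to 4.03). Its controls were the closest together of the 12 probe sets, within 0.06 on the log2 scale. Evx1 is a homeobox gene of the even-skipped family, expressed in ventral and posterior mesoderm. Evx1.L read 1.812 and 1.811 in the zic1 arrays, against 1.000, 0.751 and 0.965 in the control arrays, with no overlap. The log2 difference was 1.01 ± 0.14, and its adjusted p of 0.0488 (limma) was the nearest to the threshold among the 6.

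Msgn1 is a basic helix-loop-helix factor of presomitic mesoderm. Msgn1.L read 0.980 and 1.000 in the zic1 arrays, against 1.042, 0.895 and 1.020 in the control arrays. The zic1 arrays lay inside the range of the controls, and the log2 difference was 0.01 ± 0.09, with a 95% interval of the fold from 0.852 to 1.19. The not genes encode a homeobox factor of the organizer and notochord. Not.L read 1.000 and 1.012 in the zic1 arrays, against 1.008, 0.768 and 0.640 in the control arrays. Not.S read 1.065 and 1.215 in the zic1 arrays, against 1.000, 0.779 and 0.979 in the control arrays. The groups overlapped in the .L copy and did not in the .S copy, yet the log2 differences were nearly the same, 0.35 ± 0.20 and 0.32 ± 0.14. For not.L the difference came from control replicates 2 and 3, since control replicate 1 read like the zic1 arrays.

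In order of log2 difference, myod1.S and vegt.L stood first with 95% intervals that overlapped each other, followed by foxf1.L and myod1.L, again with overlapping intervals. Wnt8a.L, evx1.L and vegt.S followed between 0.85 and 1.04 and were not separated by their intervals. The interval of myod1.L (2.19 to 4.64-fold) also overlapped that of vegt.L above it and those of wnt8a.L, evx1.L and vegt.S below it. The remaining 5 probe sets lay between 0.01 and 0.35, and the 95% interval of each included no difference. An interval that includes 0 does not show that these genes were unaffected: for tbx6.L it allowed up to 1.82-fold.

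The controls were not alike across the 12 probe sets. Control replicate 2 was the lowest control in 8 of them and control replicate 3 the highest in 8. All 12 probe sets were below 1 in control replicate 2, and 7 read exactly 1 in control replicate 3. In those 7 both zic1 arrays lay above all controls, where the centring sets the highest control to 1. The mean log2 ratio of the 12 was 0.82 and 0.98 in the zic1 arrays, against -0.14, -0.32 and -0.03 in the control arrays. Zic1 replicate 2 was above zic1 replicate 1 in 10 of the 12. How often each array is the lower or higher was not counted over all probe sets. The counts are therefore not read as a trait of the regulators.

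The labels name no batch, but zic1 replicate 1 and control replicates 1 and 2 shared exactly equal ratios in 788 to 944 probe sets a pair, against 35 to 73 in every other pair of arrays. Most of these ties were at exactly 1. Of equal ratios other than 1, zic1 replicate 1 shared 26 and 8 with control replicates 1 and 2, and 31 with zic1 replicate 2. Control replicates 1 and 2 shared 96. A value held by 3 arrays is always the median and reads 1, so ties other than 1 cannot show a grouping of 3 arrays. They are therefore given without a reading. The labels state no cause of the ties, and the grouping stays uncertain. The regulators were also compared within these 3 arrays and within the other 2, zic1 replicate 2 and control replicate 3. In the first set the log2 difference was 2.88 for myod1.S, 2.60 for vegt.L, 1.59 for foxf1.L, 1.51 for myod1.L, 1.06 for wnt8a.L and 1.06 for evx1.L. In the second it was 2.70 for myod1.S, 2.21 for vegt.L, 1.86 for foxf1.L, 1.71 for myod1.L, 0.96 for wnt8a.L and 0.91 for evx1.L. Both differences were above 0 in 11 of the 12 probe sets, and in msgn1.L they had opposite signs (0.02 and -0.03). The genes were chosen by their difference over these same arrays, and the count was not made over all probe sets, so it is given without a reading. The widest gap between sets was in not.L, with 0.18 in the first and 0.66 in the second. With the set as a block in the limma fit, 4 of the 12 probe sets passed, against 0.239% of all probe sets, and wnt8a.L and evx1.L did not.

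**Figure D2:**
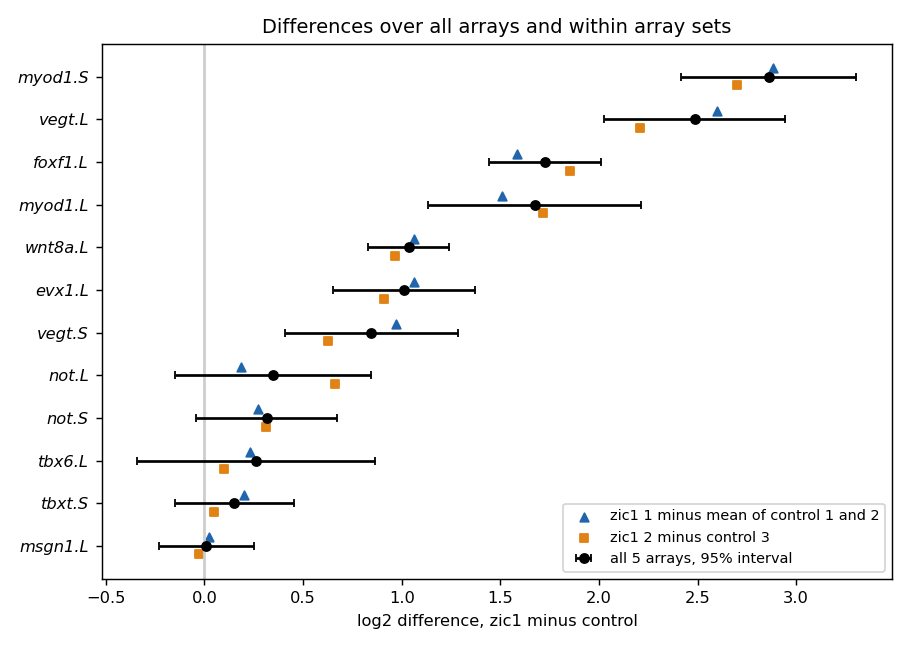
Log2 difference, zic1 minus control, of each of the 12 probe sets, with black points and 95% intervals over all 5 arrays, triangles for zic1 replicate 1 minus the mean of control replicates 1 and 2, and squares for zic1 replicate 2 minus control replicate 3. The values run from 0.01 for msgn1.L to 2.86 for myod1.S, and the 2 sets differ most in not.L, at 0.18 and 0.66.

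Other genes of the mesoderm were taken as 7 lists of 241 different probe sets in all, with the regulators above left out. Against the 1.41% of all probe sets past the threshold, 3 of these 241 passed (limma), 1 higher and 2 lower. Aplnr.S, the receptor for apelin and for the mesoderm peptide Elabela, rose: it read 5.562 and 4.903 in the zic1 arrays, against 0.670, 1.000 and 0.804 in the control arrays, a log2 difference of 2.68 ± 0.18 (adjusted p = 0.0134, limma). After cyclic loess its difference was 0.077 (adjusted p = 0.885). Nkx2-3.S, a homeobox gene of pharyngeal endoderm and heart mesoderm, fell by 0.95 on the log2 scale (adjusted p = 0.0406, limma), and the T-box gene tbx2.L fell by 0.99 (adjusted p = 0.0376, limma). The 3 calls changed with single arrays left out and with the fit. Of the 241, 0 passed without control replicate 2 or with the array set as a block, against 5 and 37 of all 15490 probe sets. After cyclic loess or without variance moderation, 0 of all probe sets passed. With zic1 replicate 1 or 2 left out, the log2 difference was 2.59 or 2.77 for aplnr.S. It was -0.84 or -1.07 for nkx2-3.S and -0.85 or -1.13 for tbx2.L.

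The muscle list showed no call beside the higher myod1. Of 42 probe sets for 23 muscle regulators and structural genes, 0 passed the threshold (limma, with 1 at an unadjusted p under 0.05, against 20.9% of all probe sets). Their log2 differences ran from -0.35 to 0.25, with a median of 0.01, against a median of 0.00 over all probe sets. The probe set at an unadjusted p under 0.05 was that of tpm1.L (-0.24 ± 0.07). Next came 1 probe set each of ckm.L (-0.35 ± 0.15) and myh6.S (0.25 ± 0.13). Both zic1 arrays lay above all controls in 2 of the 42 and below them in 4, against 19.9% and 19.4% of all probe sets. The factors myf5.L (0.05 ± 0.07), myog.L (0.01 ± 0.07), myog.S (-0.02 ± 0.07) and myf6.L (0.25 ± 0.14) act beside or after MyoD in muscle. Myf6.L had the highest difference of the 42. It read 1.000 and 1.298 in the zic1 arrays, against 1.000, 0.877 and 0.997 in the control arrays. These factors were chosen for mention after their values were seen. Protein synthesis had been stopped before dexamethasone was added, so whether muscle genes respond to the higher myod1 RNA was not tested. Ratios near 1 may also belong to transcripts too weak to read. Among structural genes, skeletal actin acta1.S read 0.913 and 1.018 in the zic1 arrays, against 1.000, 0.971 and 1.067 in the control arrays. The troponin tnnc2.L read 1.000 and 1.366 in the zic1 arrays, against 0.933, 0.913 and 3.918 in the control arrays, so the highest muscle ratio was in control replicate 3. Over 17 probe sets of muscle structure, this tnnc2.L probe set among them, the mean log2 ratio was -0.01 and 0.02 in the zic1 arrays. It was -0.07, -0.06 and 0.23 in the control arrays.

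Genes of the paraxial mesoderm and its segmentation had a median log2 difference of 0.11 over 24 probe sets. Of these 0 passed (limma, with 7 at an unadjusted p under 0.05, against 20.9% of all probe sets), and 10 had both zic1 arrays above all controls, against 19.9% of all probe sets. The nearest to passing (limma) were pdgfra.L (0.50 ± 0.08, adjusted p = 0.054), aldh1a2.L (0.49 ± 0.07, adjusted p = 0.0557) and hes7.1.L (1.60 ± 0.27, adjusted p = 0.0611). Pdgfra.L is a growth factor receptor of migrating mesoderm, aldh1a2.L makes retinoic acid, and hes7.1.L is a repressor of the Hes family. The second probe sets of pdgfra.L, aldh1a2.L and hes7.1.L lay at 0.73 ± 0.15, 0.19 ± 0.09 and 0.22 ± 0.36, none of them past the threshold. Organizer and notochord genes had a median of 0.12 over 30 probe sets, of which 0 passed (limma, with 8 at an unadjusted p under 0.05, against 20.9% of all probe sets). Both zic1 arrays lay above all controls in 12 and below them in 0, against 19.9% and 19.4% of all probe sets. The largest difference of this list was that of lhx5.S, at 0.71 ± 0.27, and another lhx5.S probe set lay at 0.42 ± 0.14. Otx2 is also in the neural plate and cement gland lists, and its probe sets are counted in each. Goosecoid, a homeobox gene of the organizer, differed by 0.68 ± 0.15 for gsc.S and by 0.54 ± 0.14 and 0.04 ± 0.07 in 2 probe sets of gsc.L, and otx2.L, of organizer and anterior neural tissue alike, by 0.28 ± 0.07.

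Genes of ventral and lateral mesoderm and blood had a median of -0.02 over 48 probe sets, with log2 differences from -1.35 to 2.68. Of the 48, 14 had an unadjusted p under 0.05 (limma), against 20.9% of all probe sets. Both zic1 arrays lay above all controls in 9 and below them in 13, against 19.9% and 19.4% of all probe sets, and 2 passed the threshold, 1 in each direction. Beside aplnr.S and nkx2-3.S, szl.S, a secreted protein induced by BMP signals, read 0.446 and 0.577 in the zic1 arrays, against 1.000, 1.462 and 1.243 in the control arrays, and did not pass (adjusted p = 0.057, limma).

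The signals that induce mesoderm and their factors had a median of 0.04 over 62 probe sets, of which 0 passed (limma, with 12 at an unadjusted p under 0.05, against 20.9% of all probe sets). Eomes.L, a T-box factor of early mesoderm and endoderm, read 1.986 and 2.497 in the zic1 arrays, against 0.806, 0.602 and 1.000 in the control arrays. The groups were well apart (1.50 ± 0.24), but the difference missed the threshold (adjusted p = 0.0573, limma). The FGF receptor fgfr1.L differed by 0.98 ± 0.15 (adjusted p = 0.054) and the ligand fgf8.L by 0.80 ± 0.13 (adjusted p = 0.0574) in 1 probe set and 0.60 ± 0.11 in another. Posterior axis genes had a median of 0.02 over 30 probe sets, of which 0 passed (limma, with 5 at an unadjusted p under 0.05, against 20.9% of all probe sets). The caudal gene cdx1.S differed by 1.01 ± 0.22 (adjusted p = 0.0911) and by 0.19 in a second probe set.

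The T-box genes other than vegt, tbxt and tbx6 had a median of -0.06 over 12 probe sets. Tbx2.L, which passed, read 0.489 and 0.595 in the zic1 arrays, against 1.129, 1.091 and 1.000 in the control arrays, and tbx3.L and tbx3.S differed by -0.50 and -0.38 without passing. Within the family, vegt.L and tbx2.L thus lay past the threshold in opposite directions.

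**Figure D3:**
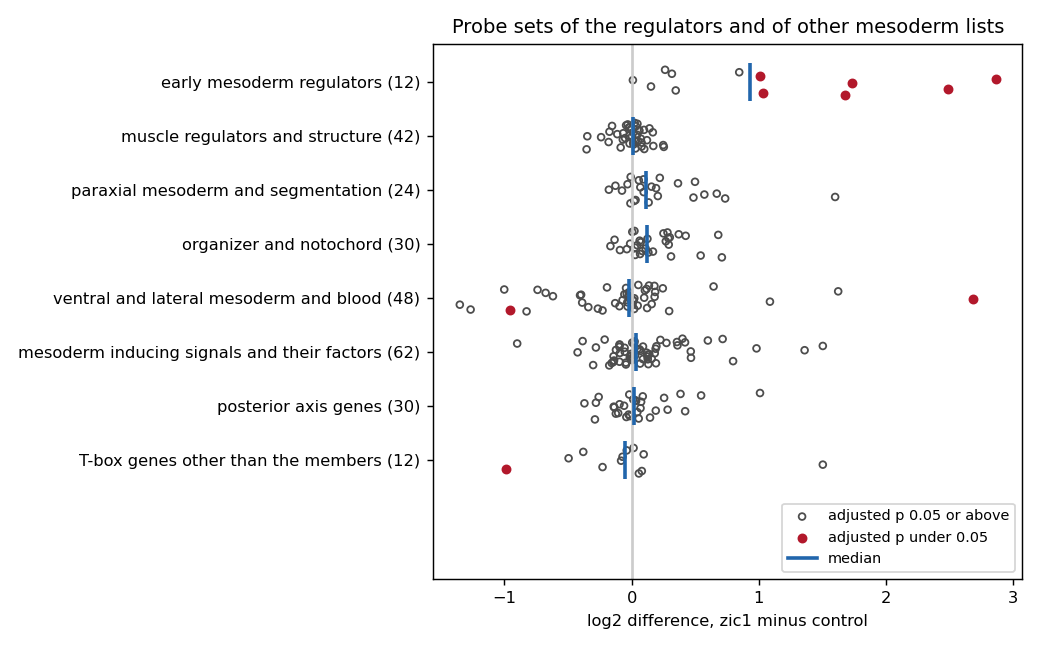
Log2 difference, zic1 minus control, of each probe set of the early mesoderm regulators and of the 7 other mesoderm lists, with the number of probe sets in brackets, filled red points past an adjusted p of 0.05 and a blue bar at the median. The regulators, chosen with these values known, have a median of 0.93 and the other lists medians between -0.06 and 0.12. Some probe sets, among them those of eomes.L, tbx1.L and tbx1.S, are shown in 2 of the lists.

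Markers of other cells that an explant can hold differed between single arrays, and their part in the values above was not tested. Over 19 endoderm probe sets the mean log2 ratio was -0.28 and -0.13 in the zic1 arrays, against -0.04, -0.07 and 0.56 in the control arrays. Control replicate 3, the highest in endoderm markers, was also the highest control for 8 of the 12 regulators, a count not made over all probe sets. Of the 19 endoderm probe sets 0 passed the threshold and 3 had an unadjusted p under 0.05 (limma), against 1.41% and 20.9% of all probe sets. In 6 of the 19 both zic1 arrays lay below all controls and in 1 above them, against 19.4% and 19.9% of all probe sets. The gap between the group means of the endoderm list came mostly from control replicate 3. Without control replicate 3 the log2 difference was 3.00 for myod1.S, 2.65 for vegt.L, 1.80 for myod1.L, 1.74 for foxf1.L, 1.08 for wnt8a.L and 1.06 for evx1.L. It was 0.94 for vegt.S, 0.45 for tbx6.L, 0.37 for not.S, 0.21 for tbxt.S, 0.19 for not.L and 0.04 for msgn1.L. Over 22 neural plate probe sets the mean was 0.34 and 0.31 in the zic1 arrays, against -0.02, -0.15 and -0.21 in the control arrays. Of these 22, 2 passed the threshold (limma), sall1.L and zic2.L, both higher, against 1.1% of all probe sets called higher. Both zic1 arrays lay above all controls in 16 of the 22 and below them in 1, against 19.9% and 19.4% of all probe sets. Over 22 epidermis probe sets the mean was -0.39 and -0.01 in the zic1 arrays, against -0.22, 0.29 and 0.19 in the control arrays. Over 9 cement gland probe sets it was -0.12 and 0.04 in the zic1 arrays, against -0.05, 0.67 and -0.19 in the control arrays. In whole explants, more cells of a type and more RNA per cell cannot be told apart.

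**Figure D4:**
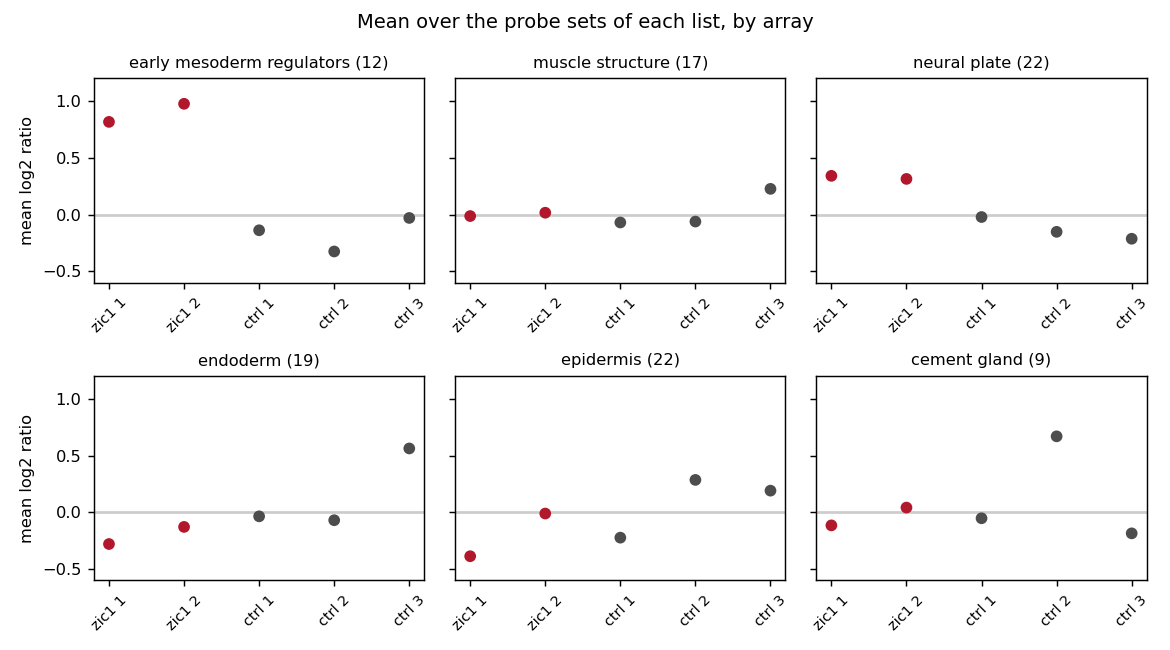
Mean log2 ratio over the probe sets of the early mesoderm regulators and of 5 marker lists (number of probe sets in brackets) in each array, zic1 arrays in red and control arrays (ctrl) in grey. The regulators average 0.82 and 0.98 in the zic1 arrays and at most -0.03 in the control arrays, while muscle structure and endoderm are highest in control replicate 3, at 0.23 and 0.56, and cement gland in control replicate 2, at 0.67. The muscle structure mean includes tnnc2.L, which read 3.918 in control replicate 3.

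The genes whose ratios were most like those of a regulator were found by the root mean square difference of log2 ratio over the 5 arrays, a measure that describes these arrays and does not link genes. Nearest to myod1.S was snai1.S (0.12), which encodes a transcriptional repressor of the Snail family, followed by glipr2.S (0.22), thop1.L (0.23), aplnr.S (0.28) and vegt.L (0.29). Snai1.S read 4.808 and 7.056 in the zic1 arrays, against 0.763, 0.838 and 1.000 in the control arrays. Nearest to vegt.L were anxa5.S (0.17), prickle1.L (0.26), celf3.S (0.27), hesx1.S (0.28) and myod1.S (0.29), so that myod1.S and vegt.L were among each other's 5 nearest. The genes nearest to tbxt.S, ywhah.L (0.01), appl1.S (0.02), tpm4.L (0.02), actn4.S (0.02) and itga2.L (0.02), had ratios close to 1 in 4 arrays and a lower ratio in control replicate 2.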

How the data were processed

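The 5 arrays were 2 of zic1 explants and 3 of control explants. Per the labels' protocols, 2 µg of total RNA a sample was labelled with biotin by the Affymetrix one-cycle protocol. GCOS and RMA are the tools listed in the submitters' processing notes, with neither version nor role. The deposited table gives linear ratios. For each of the 15571 rows with 5 values the middle value equalled 1 exactly (tolerance 0), as did each array's median, so the centring was read from the values. Of 15572 rows, 81 Affymetrix controls and 1 without values in every array were left out, which left 15490.

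Symbols are those of the platform annotation, 2 of them updated by gene identifier: 9303 probe sets had 1 symbol, 195 several and 5992 none here. Zic1 and control arrays were compared on log2 of the ratio, without a pseudocount, with limma 3.58.1 (lmFit, eBayes) in R 4.3.3, adjusted by Benjamini-Hochberg over all 15490 with a threshold of 0.05. There were 3 residual and 2.29 prior degrees of freedom. The fit was also run on simulated data with independent normal noise in each array. Those data were not centred on each probe set's median. Dividing by that median shifts all log2 ratios of a probe set alike, so it does not move the log2 difference of the main fit. Motifs and sequences were not used here.

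The regulators and lists were chosen with earlier results of these data known. The text names the regulators, list genes past the threshold, otherwise up to 3 of a list with the smallest p, muscle structure and endoderm markers, zic1, and the 5 genes nearest in pattern to 3 regulators. Further values (the second zic1.S, pdgfra.L, aldh1a2.L, hes7.1.L, cdx1.S, fgf8.L and gsc.L probe sets, tbx3.S, snai1.S values, sall1.L and zic2.L) were chosen after their values were seen. So were lhx5.S, myf5.L, myog.L, myog.S and myf6.L. Alternatives were cyclic loess, quantile normalization, array weights, the replicate number or the array set as a block, a robust prior, no variance moderation, each array left out, and a threshold of 0.10. Plots used matplotlib 3.10.9 in Python 3.11.15.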

Additional observations from a re-analysis of the deposited data

How the results depend on the processing

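All alternatives were listed with earlier results of these data known. The count of all probe sets past the threshold (limma), 219, became 0 after cyclic loess (3331 at an unadjusted p under 0.05), 109 after quantile normalization, 935 with array weights, 2692 with the replicate number as a block, 37 with the array set as a block, 0 without variance moderation (2096 unadjusted) and 1054 at an adjusted p under 0.10. Leaving out 1 array at a time gave 0 (1467 unadjusted without zic1 replicate 1) to 207. Where only 1 zic1 array remained, its spread was taken to equal that of the controls. For the other mesoderm lists the count of 3 became 0 after cyclic loess (47 unadjusted), with the array set as a block (49) and without variance moderation (35), 19 with array weights, 43 with the replicate block and 21 at an adjusted p under 0.10, and ran from 0 to 4 with single arrays left out. For the early mesoderm regulators the count of 6 became 0 after cyclic loess (2 unadjusted) and without variance moderation (7), ran from 0 to 4 with single arrays left out, and lay between 4 and 7 under the other alternatives. Vegt.S was the probe set added by array weights, the replicate block and the threshold of 0.10.

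The sign of the log2 difference turned after cyclic loess in myod1.S (-0.0058), foxf1.L (-0.51) and wnt8a.L (-0.015). On values centred for each probe set, that curve is drawn against mean log2 ratios in which the group difference is contained, so the sign it gives does not settle a direction. Msgn1.L, at 0.01, turned to -0.0059 after quantile normalization and -0.00013 with the array set as a block, and ran from -0.059 to 0.051 with single arrays left out. No other regulator changed sign under the alternatives listed. With single arrays left out, myod1.S ran from 2.74 to 3.00, vegt.L from 2.37 to 2.65, foxf1.L from 1.57 to 1.89, myod1.L from 1.38 to 1.96, wnt8a.L from 1.01 to 1.08 and evx1.L from 0.88 to 1.09.

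Replicate numbers 1 and 2 are shared by the groups, but the labels do not say that they pair samples. The deviations of same-numbered arrays from their group means correlated at 0.32 and 0.28. With 2 zic1 arrays these deviations are mirror images of each other, so the 2 values are not separate evidence of pairing. For zic1 replicate 1 with control replicate 2, both in the first array set, the correlation is therefore negative. Pairs with control replicate 3 were not measured. The fit with the replicate block left 1 residual degree of freedom and gave myod1.S a difference of 3.00 and vegt.L 2.65, the values without control replicate 3, which that block leaves without weight. Each regulator had 1 probe set of its symbol, so averaging probe sets changed no value. Signal over background is unknown for ratios, so weak probe sets could not be left out.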
